A study of Rattus norvegicus with 62 samples.

Results

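The genes described here are the 6 pore-forming alpha subunits of the Kv1 (Shaker-type) voltage-gated potassium channels measured on the array, Kcna1 to Kcna6, and the cytoplasmic beta subunits Kcnab1 and Kcnab2. Members were found by gene symbol: every probe set whose only symbol in the array's annotation is one of these 8 was kept, which gave 15 probe sets, of 20826 probe sets with a single symbol that stand for 14217 genes. Total RNA was measured in frontal cortex, hippocampus and brainstem of male Wistar rats after they received phenytoin (75 mg/kg), levetiracetam (150 mg/kg) or a control solution through a gastric tube, 2 times a day for 90 days. Both drugs are antiepileptics, and the rats' labels name no epilepsy model. Each of the 9 groups held 7 arrays, except control frontal cortex, which held 6, so that 62 arrays were compared. The sample names of levetiracetam brainstem arrays 1 and 2 give levetiracetam while their treatment text names both drugs.

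Kv1 channels are tetramers of alpha subunits that open at mildly depolarized potentials, hold back repetitive firing and shape transmitter release. In the brain Kcna1, Kcna2 and Kcna6 proteins are found mostly along axons, at juxtaparanodes, axon initial segments and terminals, whereas the Kcna4 subunit adds fast inactivation and is known for hippocampal axons and terminals. The beta subunits bind the channels from inside the cell, and Kcnab1 carries an inactivation particle that speeds the closing of channels that lack one of their own. Phenytoin blocks voltage-gated sodium channels and levetiracetam binds the synaptic vesicle protein Sv2a, so neither drug has a Kv1 channel as its main target.

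RefSeq promoter sequences (assembly GRCr8) were matched for 7 of the 8 genes, all but Kcna1. The 250 bases before the start site are printed for 3 of them, because they carry the regional contrast described next: Kcna2 and Kcna6 were highest in brainstem and Kcna4 was highest in hippocampus. Capitals mark GC boxes (GGGCGG on either strand).

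Kcna2, chr2:197393280-197393529, plus strand: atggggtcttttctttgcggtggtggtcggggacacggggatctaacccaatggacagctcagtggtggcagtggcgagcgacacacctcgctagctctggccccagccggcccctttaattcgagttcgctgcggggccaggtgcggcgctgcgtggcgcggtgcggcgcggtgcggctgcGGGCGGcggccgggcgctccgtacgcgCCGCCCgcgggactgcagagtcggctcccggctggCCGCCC
Kcna6, chr4:161262353-161262602, minus strand: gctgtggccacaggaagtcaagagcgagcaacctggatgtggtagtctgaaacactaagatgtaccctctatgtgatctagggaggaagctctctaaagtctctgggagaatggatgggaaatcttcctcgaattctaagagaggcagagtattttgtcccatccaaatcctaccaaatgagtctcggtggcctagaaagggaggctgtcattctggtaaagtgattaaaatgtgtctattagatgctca
Kcna4, chr3:114215086-114215335, plus strand: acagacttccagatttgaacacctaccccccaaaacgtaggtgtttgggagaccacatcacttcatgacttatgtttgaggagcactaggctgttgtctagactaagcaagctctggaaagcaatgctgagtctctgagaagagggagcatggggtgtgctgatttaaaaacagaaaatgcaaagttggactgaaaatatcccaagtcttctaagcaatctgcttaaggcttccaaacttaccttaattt

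The Kcna2 sequence held 3 GC boxes and 72.4% G and C. The Kcna6 and Kcna4 sequences held none, at 45.6% and 42.8% G and C. Among the matched sequences not printed, that of Kcna3, a gene too dim to be tested in any region, also held 3, at 73.6%. Those of Kcna5, Kcnab1 and Kcnab2 held none, at 54.8%, 56.0% and 65.2%. Over all 33469 promoter windows of this length in the table, 30.5% held a GC box and the median G and C content was 51.2%. A TATA box (TATAAA), searched on both strands, occurred in none of the 7 matched Kv1 sequences and in 12.9% of all windows. An E-box (CACGTG), which reads the same on both strands, also occurred in none, against 5.59% of all windows. The cAMP response element (TGACGTCA, the same on both strands), likewise absent from the 7, occurred in 1.59%. In the same assembly Kcna5, Kcna1 and Kcna6 are direct neighbours on chromosome 4, and Kcna3 and Kcna2 are direct neighbours on chromosome 2. Kcna4 lies on chromosome 3, Kcnab1 on chromosome 2 and Kcnab2 on chromosome 5.

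All levels below are normalized log2 intensities, on which a difference of 1 is a 2-fold change, and levels are compared only within a probe set. Probe sets in the dimmest 40 percent of a region were not tested, and 18625 probe sets were tested in each fit. Kcna3, whose channel is best known from lymphocytes and microglia, had 1 probe set, below this filter in every region, with group means from 4.71 to 5.12. The Kcna6 probe sets 1388263_at and 1388262_at also lay below the filter in every region. A 2nd, dim Kcna2 probe set (1370612_at) passed the filter only in brainstem and in the fit of all arrays, and a dim Kcnab2 probe set (1387689_at) only in frontal cortex. Of the 15 probe sets, 10 to 11 were therefore tested in a given comparison, and they stand for 7 of the 8 genes. A test was called where its p, adjusted over all probe sets tested by the Benjamini-Hochberg method, was under 0.05.

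Defining markers of the labelled region were present on all brainstem and hippocampus arrays but one, and the frontal cortex, which has no list of its own here, had hippocampal markers between 5.73 and 6.27 and brainstem markers at or below 4.77. The mean level of the hippocampal markers lay between 7.40 and 7.77 on the control and levetiracetam hippocampus arrays and the brainstem markers lay at or below 5.01 there, against 6.28 to 6.71 on brainstem arrays. On the array labelled phenytoin hippocampus 7 the hippocampal markers were at 6.20, against 7.47 to 7.69 on the other 6 arrays of its group, and the striatal markers were at 9.78, against 6.20 to 6.63. Its oligodendrocyte markers were at 9.98, against 8.88 to 9.34, and its estimated array weight was 0.177. Hippocampal results for phenytoin are therefore given with and without this array. The array labelled levetiracetam frontal cortex 3 had the lowest weight, 0.118. Its hippocampal markers (5.73, others 5.84 to 6.09), general neuronal markers (10.14, others 10.44 to 10.92), excitatory forebrain neuron markers (9.21, others 9.47 to 9.81) and astrocyte markers (10.15, others 10.25 to 10.53) were below the rest of its group. Its cerebellar markers (6.93, others 6.40 to 6.81), microglial markers (7.00, others 6.29 to 6.95) and choroid plexus markers (5.69, others 4.90 to 5.56) were above, and its striatal markers were within the range (6.76, others 6.58 to 7.30). On 1 phenytoin brainstem array the cerebellar markers reached 8.95, and on 1 control frontal cortex array the striatal markers reached 7.95. Median intensities as deposited ran from 34.1 to 61.8 over the arrays without missing values.

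**Figure D1:**
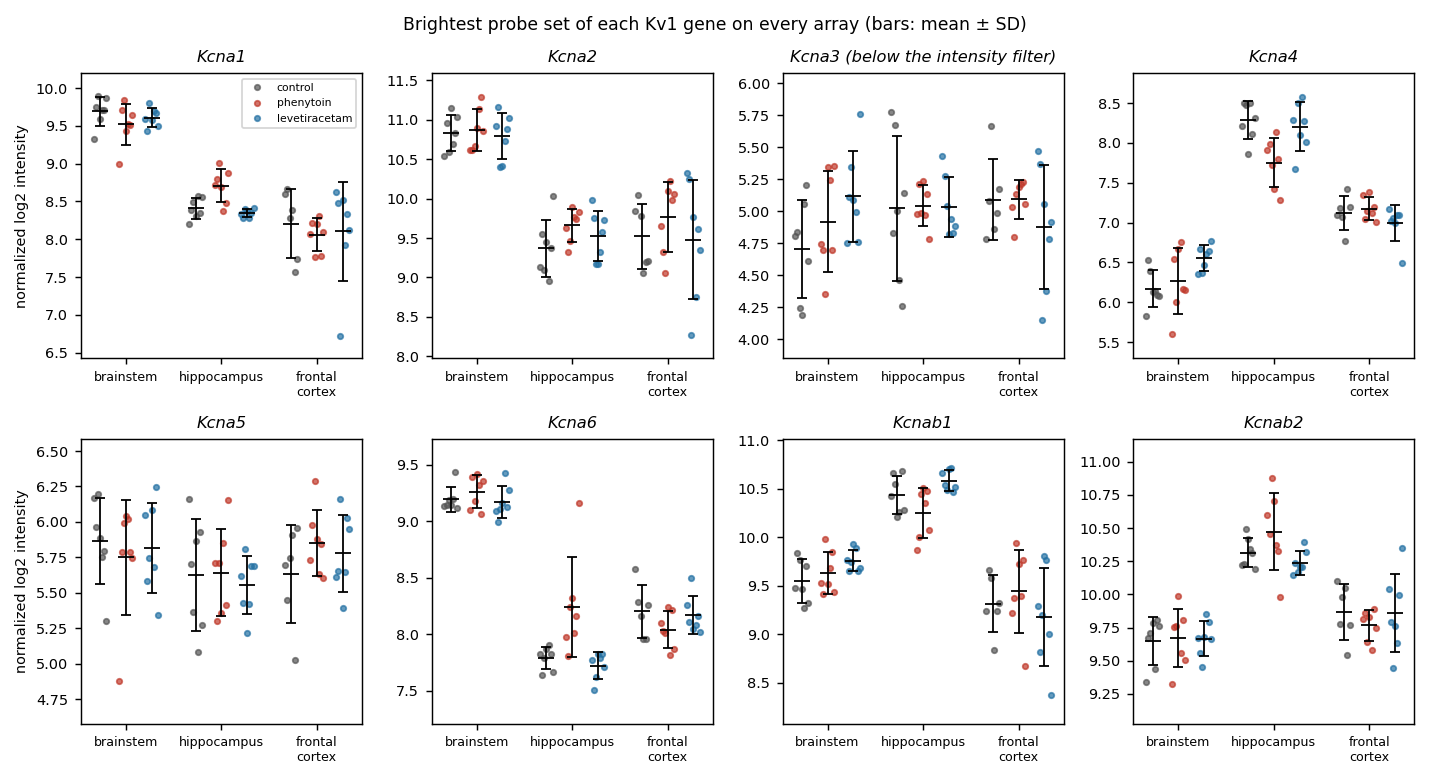
Normalized log2 intensity of the brightest probe set of each Kv1 gene on every array, by region and treatment, with the mean and SD of each group as bars. Kcna1, Kcna2 and Kcna6 are highest in brainstem and Kcna4, Kcnab1 and Kcnab2 in hippocampus, and 1 phenytoin hippocampus array stands at 9.16 for Kcna6.

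In control rats the family divided by region. Kcna1, Kcna2 and Kcna6 were 1.99-fold to 2.80-fold higher in brainstem than in hippocampus or frontal cortex, and Kcna4 was 4.32-fold lower in brainstem than in hippocampus. Both beta subunits were higher in hippocampus than in brainstem. Between brainstem and hippocampus 9 of the 11 member probe sets tested passed, 3 higher and 6 lower, where 56.4% of all probe sets passed. Between brainstem and frontal cortex 5 of 11 passed, where 58.9% of all probe sets passed. Between hippocampus and frontal cortex 6 of 11 passed, 5 higher and 1 lower, where 46.1% of all probe sets passed. The member probe sets' median difference was -0.61 for brainstem minus hippocampus, against 0.01 over all probe sets. That median is the value of Kcnab1 1369847_at and does not weigh genes equally. The lower probe sets were those of Kcna4, Kcnab1 and Kcnab2, and each beta subunit entered with more than 1 probe set. The higher ones were Kcna1, Kcna2 and Kcna6, with 1 each.

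Among the alpha subunits, Kcna1 in control rats lay at 9.33, 9.71 and 9.90 (lowest, median and highest) in brainstem. It lay at 8.20, 8.38 and 8.58 in hippocampus and at 7.56, 8.34 and 8.66 in frontal cortex. Every brainstem array stood above every array of the other regions, and the hippocampal and cortical ranges overlapped. Brainstem exceeded hippocampus by 1.29 ± 0.16 (SE; limma, adjusted p = 2.0e-10; n = 7 and 7) and frontal cortex by 1.49 ± 0.16 (adjusted p = 6.8e-12; n = 7 and 6). The difference of 0.20 between hippocampus and frontal cortex did not pass (95% interval -0.13 to 0.53).

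Kcna2, the usual partner of Kcna1 in axonal channels, lay at 10.54, 10.83 and 11.15 in control brainstem. It lay at 8.96, 9.37 and 10.03 in hippocampus and at 9.06, 9.50 and 10.04 in frontal cortex. As for Kcna1, the brainstem arrays did not overlap with the others. The brainstem excess was 1.46 ± 0.20 over hippocampus (adjusted p = 4.4e-09) and 1.31 ± 0.21 over frontal cortex (adjusted p = 1.8e-07). The dim Kcna2 probe set 1370612_at did not show it: its brainstem minus hippocampus difference was 0.31 (adjusted p = 0.129) and its brainstem minus frontal cortex difference 0.01 (adjusted p = 0.968). The former passed without control brainstem array 7 (0.41, adjusted p = 0.0478) or control hippocampus array 1 (0.41, adjusted p = 0.0498).

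Kcna6, a further axonal subunit, lay at 9.11, 9.15 and 9.43 in control brainstem. It lay at 7.64, 7.83 and 7.90 in hippocampus and at 7.96, 8.21 and 8.58 in frontal cortex. The 3 regions did not overlap: brainstem was highest and hippocampus lowest. Brainstem exceeded hippocampus by 1.40 ± 0.11 (adjusted p = 9.4e-18), and hippocampus was below frontal cortex by a difference of -0.41 ± 0.11 (adjusted p = 0.00192).

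Kcna4 had the opposite order. It lay at 7.86, 8.31 and 8.50 in control hippocampus, at 6.77, 7.14 and 7.42 in frontal cortex and at 5.83, 6.13 and 6.53 in brainstem, with no overlap between any of the regions. The difference of brainstem minus hippocampus was -2.11 ± 0.14 (adjusted p = 4.0e-21), and hippocampus exceeded frontal cortex by 1.16 ± 0.14 (adjusted p = 4.8e-10). Kcna5, known mainly from heart and vascular muscle, was dim, with group means from 5.55 to 5.87 over the 9 groups, and passed in no comparison. Without quantile normalization it passed for brainstem minus frontal cortex (0.44, adjusted p = 0.0204). For Kcna5 and Kcna3 no neighbouring groups in the order of the 9 means differed by more than the larger of their SDs.

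Of the beta subunits, the brighter Kcnab1 probe set (1378738_at) lay at 10.21, 10.43 and 10.68 in control hippocampus. It lay at 9.27, 9.48 and 9.84 in brainstem and at 8.84, 9.28 and 9.66 in frontal cortex. The hippocampal arrays stood above all others, by 0.89 over brainstem (difference of brainstem minus hippocampus -0.89 ± 0.15, adjusted p = 4.9e-07) and by 1.12 ± 0.15 over frontal cortex (adjusted p = 9.0e-09). The 2nd Kcnab1 probe set (1369847_at) was also highest in hippocampus, with -0.61 for brainstem minus hippocampus and 0.53 for hippocampus minus frontal cortex, and both differences passed. The probe sets differed in the order of the other regions, with control means of 9.55 in brainstem and 9.32 in frontal cortex for 1378738_at and of 7.23 and 7.31 for 1369847_at. Neither Kcnab1 probe set passed between brainstem and frontal cortex (adjusted p = 0.610 for 1369847_at and 0.181 for 1378738_at), but with the replicate number as a block 1378738_at did (0.26, adjusted p = 0.0313).

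Kcnab2, the most widely expressed beta subunit in brain, lay at 10.19, 10.31 and 10.49 in control hippocampus, 9.54, 9.88 and 10.10 in frontal cortex and 9.34, 9.71 and 9.80 in brainstem by its brightest probe set (1390674_at). Brainstem was below hippocampus in the 3 Kcnab2 probe sets tested, with differences of -0.67, -0.71 and -1.28. They did not agree on the cortex: hippocampus minus frontal cortex was 0.45 for 1390674_at and 1.01 for 1391203_at, which passed, and 0.00 for 1397663_at, which did not (adjusted p = 0.983). Brainstem minus frontal cortex passed for 1397663_at (-0.70, adjusted p = 1.4e-05) and not for 1390674_at (-0.22, adjusted p = 0.0653). The latter passed with array weights (adjusted p = 0.0135), without quantile normalization (0.0114) and with the Gapdh ratio as covariate (0.0163). It passed too with only control rats in the fit (0.0355) and with the arrays of low weight left out (0.0360). Single arrays whose removal made it pass were control frontal cortex 6 (0.0213), control brainstem 6 (0.0488) and phenytoin hippocampus 7 (0.0481). With the replicate number as a block it passed as well (0.0360). The block thus took the count there from 5 to 7, with this probe set and Kcnab1 1378738_at.

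**Figure D2:**
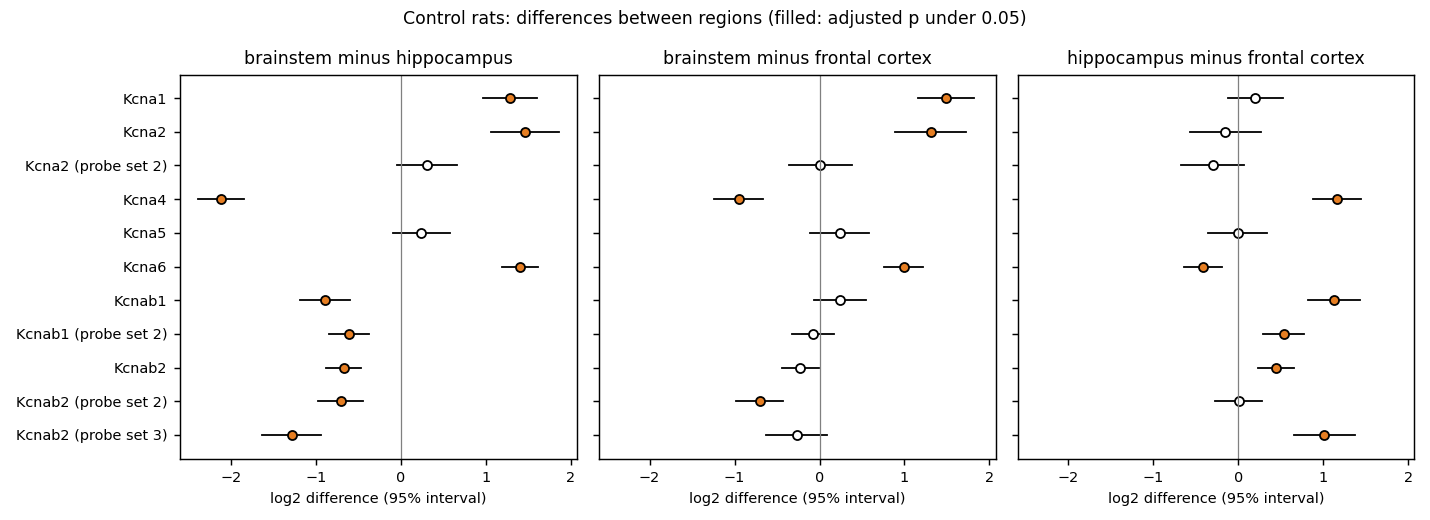
Differences between regions in control rats for the 11 member probe sets tested, in log2 units with 95% intervals, for brainstem minus hippocampus, brainstem minus frontal cortex and hippocampus minus frontal cortex. Filled points passed at an adjusted p under 0.05; Kcna1, Kcna2 and Kcna6 lie to the right in both brainstem panels and Kcna4 lies furthest to the left, at -2.11, against hippocampus.

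The region with the highest level was the same in treated rats for the brightest probe set of 6 genes. In the order of the 9 group means the 3 brainstem groups came first for Kcna1, Kcna2 and Kcna6, and the gap below the 3rd group (0.82, 1.02 and 0.93) was larger than the SDs on either side. For Kcna4, Kcnab1 and Kcnab2 the 3 hippocampal groups came first, with a gap of 0.58, 0.49 and 0.37 to the next group. Below the top region the order of the means was not the same in all treatments. Kcna6 was higher in frontal cortex than in hippocampus in control rats (8.20 and 7.79) and not with phenytoin (8.04 and 8.24). The phenytoin hippocampus mean had an SD of 0.44 and includes array 7 at 9.16. The other arrays of that group, at 7.80 to 8.32, overlapped with phenytoin frontal cortex, at 7.82 to 8.24. Not all dimmer probe sets of the beta subunits kept the hippocampal groups first. Kcnab2 1391203_at did, while the dim Kcnab2 1387689_at had the frontal cortex groups first. Kcnab1 1369847_at had levetiracetam brainstem (7.65) above phenytoin hippocampus (7.49). Kcnab2 1397663_at had control and levetiracetam frontal cortex (7.78 and 7.76) above phenytoin hippocampus (7.71), an order that rested on the array labelled phenytoin hippocampus 7. Without that array this probe set was 0.08 higher with phenytoin than in control hippocampus (7.79), and so above the cortical means. For Kcna4 the last groups were the 3 brainstem groups, 0.44 below the cortical ones. Within brainstem no neighbouring groups of these 6 genes' brightest probe sets differed by more than the larger SD.

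Other cell types moved with these contrasts. All 12 oligodendrocyte markers tested were higher in brainstem than in hippocampus (median difference 1.27), and all 6 markers of excitatory forebrain neurons were lower (median -3.64). Of 12 general neuronal markers 3 were higher and 4 lower. In tissue RNA fewer cells of a type and less RNA per cell cannot be told apart, and the part of cell composition in the Kv1 differences was not tested. The mean signal of the hybridization controls was between 9.58 and 10.22 on frontal cortex arrays and between 10.12 and 11.98 on the others, and the sample titles of the cortex follow another pattern, so handling and region cannot be told apart for contrasts with cortex.

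Of the Kv1 complex partners (28 genes, 25 tested here) 8 were higher and 8 lower in brainstem than in hippocampus, with a median of 0.02. That is 64.0% of those tested, against 56.4% of all probe sets. Higher were Epb41l3 (1.60), a membrane-skeleton protein of juxtaparanodes, and Kcnab3 (1.50), the remaining beta subunit. Lower were Stx1a (-2.08), a synaptic fusion protein, Actn2 (-2.05), an actin cross-linker, and Lgi1 (-1.31), a secreted epilepsy-linked protein. Of 19 tested members of other Kv families 7 were higher and 8 lower, among them Kcnh2 (1.64) and Kcnc1 (1.43), a channel of fast-firing neurons, and, lower, Kcnv1 (-3.11) and Kcnip2 (-2.55). Brainstem against frontal cortex gave 6 higher and 8 lower partners and 7 higher and 10 lower other Kv genes. Hippocampus against frontal cortex gave 6 higher and 7 lower partners, and 5 higher and 9 lower other Kv genes. In these comparisons 56.0% and 52.0% of the partners passed, against 58.9% and 46.1% of all probe sets. Of the 19 other Kv genes tested, 89.5% and 73.7% passed here. For brainstem against hippocampus 78.9% of these Kv genes passed. The genes of both lists were counted by their brightest probe set only, while the shares over all probe sets include dimmer and repeated ones. These shares are thus of unlike sets, and whether the listed genes passed more often than other genes was not tested.

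In hippocampus 3 Kv1 genes passed for phenytoin against control, each by 1 probe set, and none of them did with the Gapdh ratio as a covariate. Kcna1 was 1.23-fold and Kcna6 1.37-fold higher, and Kcna4 1.45-fold lower, than in control rats. These were 3 of 10 member probe sets tested, where 9.24% of all probe sets passed, 847 higher and 874 lower. The members' median was -0.03, against 0.00 over all probe sets. Without the array labelled phenytoin hippocampus 7 these 3 probe sets still passed, and Kcnab2 1390674_at passed as well (0.24, adjusted p = 0.0348). Without control array 2 the count was 0, and without control array 1 or 6 or phenytoin array 3 it was 1. The values for each gene follow.

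Kcna4 lay at 7.28, 7.80 and 8.14 with phenytoin, at 7.86, 8.31 and 8.50 in controls and at 7.67, 8.27 and 8.57 with levetiracetam. The phenytoin range was lower but overlapped with the others, and its lowest value came from array 7. Phenytoin minus control was -0.53 ± 0.14 (95% interval -0.82 to -0.24; limma, adjusted p = 0.0212; n = 7 and 7), and -0.45 without array 7 (adjusted p = 0.0274). The call was lost without control array 2 (-0.50, adjusted p = 0.0516).

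Kcna1 lay at 8.37, 8.72 and 9.01 with phenytoin, at 8.20, 8.38 and 8.58 in controls and at 8.29, 8.35 and 8.41 with levetiracetam. The upper part of the phenytoin range stood clear of both other groups. Phenytoin minus control was 0.30 ± 0.08 (95% interval 0.13 to 0.47; adjusted p = 0.0282), and 0.27 without array 7 (adjusted p = 0.0346). The call was lost with all arrays in 1 fit (0.30, adjusted p = 0.241). Leaving out control array 1, 2, 4 or 6 or phenytoin array 2 or 3, one at a time, moved the adjusted p to between 0.0519 and 0.0710, with differences of 0.25 to 0.30.

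Kcna6 lay at 7.80, 8.16 and 9.16 with phenytoin, at 7.64, 7.83 and 7.90 in controls and at 7.51, 7.78 and 7.83 with levetiracetam. The value of 9.16 was that of array 7, and the other 6 phenytoin arrays lay between 7.80 and 8.32. Phenytoin minus control was 0.45 ± 0.13 (95% interval 0.18 to 0.72; adjusted p = 0.0352) with array 7 and 0.30 (adjusted p = 0.0188) without it, so that the size of the change, but not the call, rested on that array. Leaving out control array 1, 2, 6 or 7 or phenytoin array 3 or 4 moved the adjusted p to between 0.0504 and 0.0751, and with no filter on dim probe sets it was 0.0543. The other 2 Kcna6 probe sets, below the filter, had phenytoin group means of 4.74 and 4.26 against control means of 4.97 and 4.32, so they did not show a rise.

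Among the members that did not pass, Kcna2 was 0.29 higher with phenytoin (95% interval -0.0039 to 0.59; adjusted p = 0.200). Both Kcnab1 probe sets had lower means, by differences of -0.35 (adjusted p = 0.0584) and -0.19 (adjusted p = 0.225). The dimmer one passed when the dimmest 60 percent were left out (adjusted p = 0.0465), without control array 5 (0.0327) or without phenytoin array 2 (0.0320). Kcna5 differed by 0.02 (95% interval -0.32 to 0.35). Without array 7 these were 0.27 for Kcna2 (adjusted p = 0.242), -0.32 and -0.16 for Kcnab1 (0.0801 and 0.292) and -0.07 for Kcna5 (0.816).

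An RNA quality ratio and the signal of the spike-in hybridization controls differed in this comparison, the ratio only before adjustment. The log2 ratio of the 3-prime to the 5-prime Gapdh control probe sets was 0.39 ± 0.10 (SD, n = 7) on phenytoin hippocampus arrays and 0.24 ± 0.12 (n = 7) in controls (two-sided exact permutation test, p = 0.0233; adjusted over 9 comparisons, 0.105). The hybridization controls averaged 10.51 ± 0.17 against 10.86 ± 0.32 (exact permutation p = 0.00583, adjusted 0.0262). Control array 1 had the lowest Gapdh ratio of the controls, 0.04, and their highest hybridization controls, 11.54. Without array 7 the Gapdh ratio was 0.36 ± 0.08 (n = 6; exact permutation p = 0.0466, not adjusted) and the hybridization controls 10.51 ± 0.18 (exact permutation p = 0.0117, not adjusted). With the Gapdh ratio as a covariate none of the 3 changes passed (Kcna4 -0.40, adjusted p = 0.315; Kcna1 0.13, adjusted p = 0.535; Kcna6 0.23, adjusted p = 0.522), and the count over all probe sets went from 1721 to 17. The part of RNA quality in these changes was not tested beyond that. With the beta-actin ratio as covariate Kcna4 and Kcna1 passed and Kcna6 did not (0.31, adjusted p = 0.106).

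Against levetiracetam, which shares the phenytoin arrays of the comparison above, phenytoin gave 4 of 10 member probe sets in hippocampus, where 16.8% of all probe sets passed. Kcna1 was higher by 0.36 ± 0.08 (adjusted p = 0.00546; 0.33 without array 7) and Kcna6 by 0.52 ± 0.13 (adjusted p = 0.0103; 0.36 without array 7). Kcna4 was lower by a difference of -0.45 ± 0.14 (adjusted p = 0.0295), which did not pass without array 7 (-0.37, adjusted p = 0.0515). Nor did it pass without phenytoin array 3 or 4 or levetiracetam array 1, 3, 5 or 6, with adjusted p from 0.0502 to 0.0696. Kcnab1 1378738_at was lower, at 9.88, 10.35 and 10.52 with phenytoin against 10.47, 10.54 and 10.72 with levetiracetam, ranges that overlapped (-0.34 ± 0.10, adjusted p = 0.0208; -0.31 without array 7). Kcnab2 1390674_at did not pass (0.24, adjusted p = 0.0852), but did without array 7 (0.32, adjusted p = 0.00449). Kcnab1 1369847_at did not pass (-0.31, adjusted p = 0.0734), but did without phenytoin array 2 (0.0329) or levetiracetam array 1 (0.0446). None of the 4 passed with the Gapdh ratio as a covariate, and that ratio was 0.27 ± 0.03 with levetiracetam (exact permutation p = 0.00932; adjusted 0.0839). The hybridization controls averaged 10.51 ± 0.17 with phenytoin and 10.91 ± 0.11 with levetiracetam (n = 7 and 7; exact permutation p = 0.000583; adjusted 0.00524). The log2 actin ratio was 1.45 ± 0.16 against 1.28 ± 0.12 (exact permutation p = 0.0431; adjusted 0.0776). Without array 7 the exact permutation p, not adjusted, was 0.0186 for the Gapdh ratio, 0.00117 for the hybridization controls and 0.0862 for the actin ratio.

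**Figure D3:**
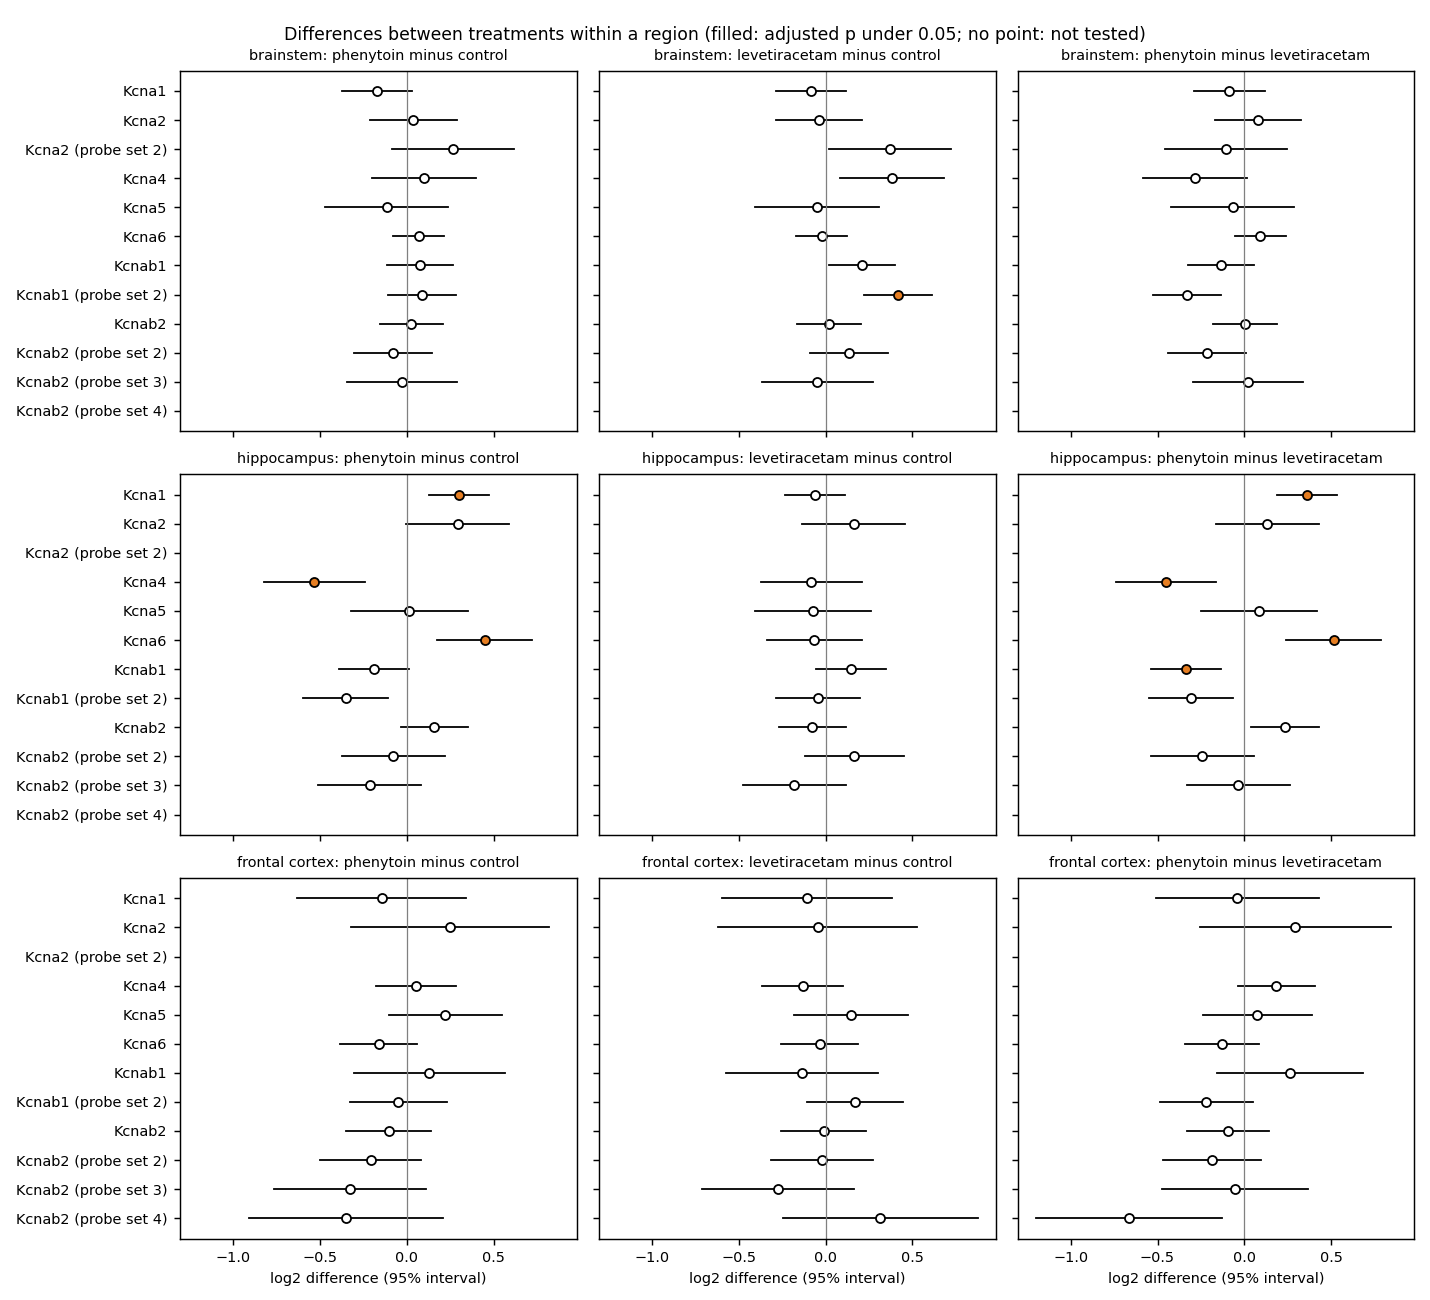
Differences between treatments within each region for the member probe sets tested, in log2 units with 95% intervals; rows are brainstem, hippocampus and frontal cortex, and columns are phenytoin minus control, levetiracetam minus control and phenytoin minus levetiracetam. Filled points passed at an adjusted p under 0.05: 3 and 4 in the hippocampal phenytoin panels and 1, for a Kcnab1 probe set, with levetiracetam in brainstem.

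Of the partners, Nfasc (0.28), a nodal adhesion protein, and Sptbn4 (0.29), the spectrin of nodes and initial segments, were higher with phenytoin than in control hippocampus, 2 of 24 tested (8.33%, against 9.24% of all probe sets), with a list median of 0.17. Without array 7, where 2286 of the 18625 probe sets passed, 5 of 24 partners did: Adam11 (0.52), Sptbn4 (0.30), Cntnap2 (0.28), Adam23 (0.26) and Epb41l3 (0.20), while Nfasc did not (0.23, adjusted p = 0.0516). Of 19 other Kv genes tested only Kcnc1 (0.32) passed, and none were called lower. Without array 7 Kcnc1 (0.33) and Dpp6 (0.25) passed. Against levetiracetam 5 partners were higher, Stx1a (0.54), Adam11 (0.52), Cntnap1 (0.37), Sptbn4 (0.36) and Nfasc (0.29), of 24 tested. Of 19 other Kv genes Kcnh3 (0.38) and Kcnc1 (0.34) were higher and Kcnc2 (-0.22) lower. These were 20.8% and 15.8% of those tested, near the 16.8% of all probe sets that passed. Without array 7 Cntnap1 did not pass (0.26, adjusted p = 0.0659), the other 4 partners and these 3 Kv genes did, and Dpp6 (0.21) passed as well. Markers of other cells in phenytoin against control hippocampus gave 4 of 12 neuronal, 1 of 6 excitatory forebrain neuron and 2 of 11 oligodendrocyte markers higher. Without array 7 the same comparison gave 4 of 12 neuronal markers higher and 1 lower, 4 of 6 excitatory forebrain neuron, 2 of 11 oligodendrocyte and 1 of 5 hippocampal markers higher, and 1 lower in each of the GABA neuron, astrocyte and microglia lists. The mean oligodendrocyte level was 8.88 to 9.98 with phenytoin and 8.83 to 9.33 in controls, the highest value being array 7, and their part in the Kv1 changes was not tested.

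Levetiracetam in hippocampus gave 0 of 10 member probe sets against control. By limma 0% of all probe sets passed and 1680 had an unadjusted p under 0.05. Among the tested member probe sets the largest difference was 0.18 in size, for Kcnab2 1391203_at (-0.18, 95% interval -0.48 to 0.12). For Kcna4 the interval was -0.37 to 0.21, for Kcna1 -0.23 to 0.11 and for Kcna6 -0.34 to 0.21.

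In brainstem 1 member probe set, Kcnab1 1369847_at, rose with levetiracetam, of 11 tested, where 9.24% of all probe sets passed. It lay at 7.47, 7.57 and 8.04 with levetiracetam and at 7.03, 7.26 and 7.38 in controls, so that the groups did not overlap. Phenytoin brainstem arrays lay at 7.02, 7.34 and 7.56. The difference from control was 0.42 ± 0.09 (95% interval 0.22 to 0.61, 1.34-fold; limma, adjusted p = 0.00679; n = 7 and 7). It was 0.48 (adjusted p = 0.0106) without levetiracetam arrays 1 and 2, whose labels name both drugs, and 0.42 with the Gapdh ratio as covariate (adjusted p = 0.00396). The brighter Kcnab1 probe set lay in the same direction and did not pass (0.21, adjusted p = 0.157), so the gene is not called when only its brightest probe set is used. Kcna4 was 0.38 higher with levetiracetam (95% interval 0.08 to 0.68) and did not pass (adjusted p = 0.0969). It passed without phenytoin brainstem array 1, which shares only the estimate of spread (adjusted p = 0.0450), with array weights (0.0479) and with the Gapdh ratio as covariate (0.0493). The hybridization controls averaged 10.82 ± 0.21 with levetiracetam and 10.46 ± 0.27 in controls (n = 7 and 7; exact permutation p = 0.0169; adjusted 0.0507). The log2 actin ratio was 1.49 ± 0.11 against 1.38 ± 0.06 (exact permutation p = 0.0268; adjusted 0.0603), and with that ratio as a covariate Kcnab1 1369847_at still passed (0.39, adjusted p = 0.0281). Of 24 partners 1 was lower, Adam11 (-0.45), and none of 20 other Kv genes passed. Of 12 oligodendrocyte markers 1 was higher and 4 lower, with a mean level of 10.15 to 10.29 against 10.25 to 10.45 in controls. The neuronal, GABA neuron and hippocampal lists each had 1 marker higher, and the astrocyte and endothelial lists each 1 lower. Their part was not tested.

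Phenytoin in brainstem called 0 of 11 member probe sets. By limma 0.0161% of all probe sets passed and 1360 had an unadjusted p under 0.05. The lowest member p was that of Kcna1 (-0.17, 95% interval -0.37 to 0.03, adjusted p = 0.759). The log2 actin ratio was 1.55 ± 0.16 with phenytoin and 1.38 ± 0.06 in controls (n = 7 and 7, exact permutation p = 0.0122, adjusted 0.0455). Phenytoin against levetiracetam in brainstem also called 0 of 11, where 2.98% passed. There Kcnab1 1369847_at lay lower, by a difference of -0.33 ± 0.09, (adjusted p = 0.0545) and passed without phenytoin array 1 (0.0265), 5 (0.0408) or 6 (0.0442). Adam11 (0.30) was higher and Lgi1 (-0.26) lower among 24 partners.

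In frontal cortex no member probe set passed. The counts were 0 of 11 for phenytoin against control, where 6.39% of all probe sets passed, and 0 of 11 for levetiracetam against control, where 0% passed by limma and 749 had an unadjusted p under 0.05. Between the drugs 0 of 11 passed, where 10.8% of all probe sets did. The spread was wide here for 1 group: Kcna1 with levetiracetam lay at 6.72, 8.33 and 8.62, its lowest value being array 3, and Kcna2 with levetiracetam at 8.27, 9.62 and 10.33. The intervals of phenytoin minus control were -0.63 to 0.34 for Kcna1, -0.18 to 0.29 for Kcna4 and -0.38 to 0.06 for Kcna6. The largest difference in size between the drugs was that of the dim Kcnab2 probe set 1387689_at (-0.66, adjusted p = 0.106), which passed without levetiracetam array 3 (-0.82, adjusted p = 0.0343). Adam22 (0.74) and Lgi1 (0.33), which form a synaptic ligand and receptor pair, were higher with phenytoin than with levetiracetam, 2 of 25 partners. Of 20 other Kv genes Kcnd3 (0.51) and Kcnd2 (0.32) were higher and Kcnip1 (-0.38) was lower. The log2 actin ratio was 1.57 ± 0.14 with phenytoin (n = 7), 1.26 ± 0.19 with levetiracetam (n = 7) and 1.32 ± 0.15 in controls (n = 6). Phenytoin differed from levetiracetam (exact permutation p = 0.00932, adjusted 0.0455) and from control (exact permutation p = 0.0152, adjusted 0.0455). Its part in the partner and other Kv differences was not tested.

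Whether a drug's change differed between regions was tested with an F test in the fit of all arrays. For phenytoin 2 of 11 member probe sets passed, where 12.2% of all probe sets did. Kcna6 changed by 0.45 in hippocampus, 0.07 in brainstem and -0.16 in frontal cortex (adjusted p = 0.0135; 0.0256 without the array labelled phenytoin hippocampus 7). Kcna4 changed by -0.53, 0.10 and 0.05 (adjusted p = 0.0286), which did not pass without that array (0.0688), without phenytoin hippocampus array 4 (0.0626) or without control hippocampus array 2 (0.0585), 3 (0.0505) or 5 (0.0524). Kcna1, at 0.30, -0.17 and -0.15, was not shown to differ between regions (adjusted p = 0.235), but passed with array weights (0.0113). For levetiracetam 0 of 11 passed, where 0.0644% of all probe sets passed and 1726 had an unadjusted p under 0.05. The brainstem change of Kcnab1 1369847_at (0.42) was thus not shown to differ from its values of -0.04 in hippocampus and 0.17 in frontal cortex (adjusted p = 0.450).

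**Figure D4:**
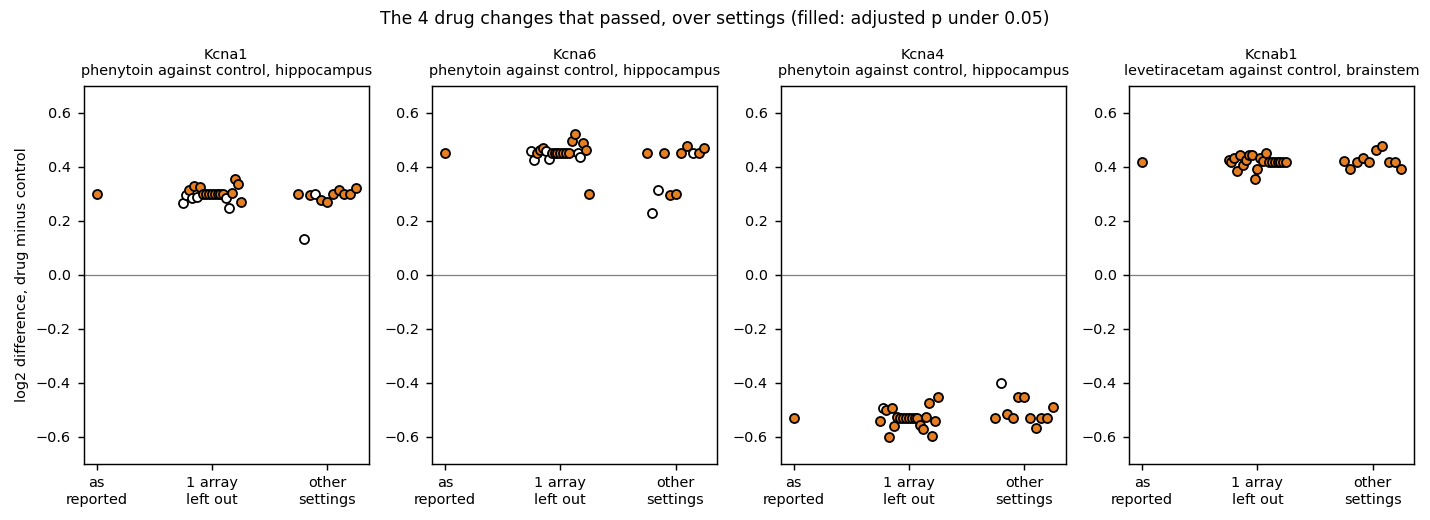
The 4 drug-against-control changes that passed (Kcna1, Kcna6 and Kcna4 with phenytoin in hippocampus, a Kcnab1 probe set with levetiracetam in brainstem), in log2 units, as reported, with 1 array left out and under the other settings; filled points passed at an adjusted p under 0.05. All values keep their sign, from 0.13 to 0.36 for Kcna1, and the Kcnab1 points are all filled.

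The genes with the most similar levels over the 9 group means, by Pearson correlation among 14208 probe sets with a single symbol, were the following. For Kcna1 they were Glud1 (0.998) and Fnbp1 (0.998), for Kcna2 Hcn2 (0.997), a pacemaker cation channel, and Pptc7 (0.995), and for Kcna6 Aifm3 (0.995) and Gtf2ird1 (0.995). For Kcna4 they were Slc9a2 (0.988) and Dusp6 (0.988), for Kcnab1 Spon1 (0.991) and Gpr161 (0.990), and for Kcnab2 Cacna1h (0.987), a T-type calcium channel, and Fbrsl1 (0.986). Correlations over 0.95 were common, with 718 probe sets for Kcna1, 675 for Kcna2 and 594 for Kcna6. There were 174 for Kcna4, 101 for Kcnab1 and 78 for Kcnab2, and 1 gene can hold several probe sets. The 9 means come from 3 regions and are not independent points. For the dim Kcna5 1 probe set, of Oxsm (0.967), exceeded that correlation.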

How the data were processed

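Total RNA of 62 rat brain samples was measured on single-colour oligonucleotide arrays of 31099 probe sets. The deposited values are linear intensities that the authors had brought to a common scale: the mean after trimming 2 percent at each end is 150.04 to 150.06 on arrays without missing values. The summarization method is not given in the sources used here. Phenytoin hippocampus array 4 lacks 4799 values, which stayed missing. Values below 0 were set to 0, transformed as log2(value + 16) and quantile normalized over all arrays, and 57 control features were left out, as were the 40 percent with the lowest mean intensity (18625 tested). A pseudocount of 16 makes fold changes of dim probe sets too small.

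Each region's 3 treatments were fitted with limma 3.58.1 in R 4.3.3 (lmFit, eBayes with intensity trend). Control regions and F tests came from 1 fit of all 9 groups. Tests were two-sided with Benjamini-Hochberg adjustment over all probe sets, and the script was tested on simulated data. Ratios of control probe sets were compared with exact permutation tests (scipy 1.17.1) and figures drawn with matplotlib 3.10.9 in Python 3.11.15. Every member probe set is described, and a member's main probe set is the brightest. Listed genes are named where their brightest probe set passed, at most 6 per list and comparison by size, and the 2 most correlated genes are named for each member with a tested main probe set. Members and gene lists were chosen with earlier results of these data known. The numbers in the labels name separate samples, and the labels do not say whether 1 rat gave several regions. If so, the region contrasts and F tests treat arrays of 1 rat as independent. P-values reflect the spread among the arrays of a group. The labels do not say that a number marks 1 rat, so how much of that spread is technical is not known. No 2 arrays were identical, and the correlation within a group was 0.893 to 0.987. The number of arrays limits the precision. Alternatives were another floor, other filters, no quantile normalization, array weights, control probe set ratios as covariates, a replicate block, 1 probe set per gene, and arrays left out.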

Additional observations from a re-analysis of the deposited data

Results flagged for a closer look

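Of 135 groups of arrays (15 probe sets in 9 groups), 12 held an array far from the rest of its group. About 1 in 20 groups does so by chance. For the brightest probe sets, Kcna1 was 6.72 on levetiracetam frontal cortex array 3 (others 7.92 to 8.62), and Kcna4 was 6.50 on levetiracetam frontal cortex array 7 (others 7.00 to 7.17). Kcna5 was 4.88 on phenytoin brainstem array 1 (others 5.74 to 6.05). Kcna6 was 9.43 on control brainstem array 6 (others 9.11 to 9.20) and 9.16 on the array labelled phenytoin hippocampus 7 (others 7.80 to 8.32).

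The other 7 were of dim probe sets. Kcna2 1370612_at was 4.96 on control brainstem array 7, 6.79 on levetiracetam brainstem array 2 and 4.32 on phenytoin hippocampus array 3. Kcna6 1388262_at was 4.99 on phenytoin hippocampus array 3, and Kcna6 1388263_at was 4.19 on control brainstem array 7. Kcnab2 1387689_at was 5.67 on levetiracetam brainstem array 4 and 5.38 on phenytoin brainstem array 3.

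The change with phenytoin differed between regions in the F test for Kcna4 (adjusted p = 0.0286) and Kcna6 (adjusted p = 0.0135).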

How the results depend on the processing

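Of 157 counts of members that passed under another setting, 142 stayed within 1.5 times the reported count, 8 were lower and 7 higher. Of 496 counts with 1 array left out, 482 stayed, 9 were lower and 5 higher. All region differences of control rats that passed kept their direction and passed in every setting in which the probe set was tested and with each array left out. No called change turned its direction. For phenytoin against control in hippocampus the count was 3 and was 0 with the Gapdh ratio as covariate. For phenytoin against levetiracetam in hippocampus it was 4, and 2 with the actin ratio, 2 with all arrays in 1 fit and 0 with the Gapdh ratio. For levetiracetam against control in brainstem it was 1, and 0 with 1 probe set per gene, 2 with array weights and 2 with the Gapdh ratio. For phenytoin against levetiracetam in brainstem it was 0, and 1 with array weights, with the dimmest 60 percent left out and with the Gapdh ratio. In frontal cortex that comparison went from 0 to 1 with array weights and with the arrays of low weight left out. For the phenytoin effect between regions it was 2, and 1 with low-weight arrays left out, with a floor of 1 and with the Gapdh ratio. The actin covariate, leaving out low-weight arrays, and the values of all lists without phenytoin hippocampus array 7 were chosen after seeing the data; the cause was not tested for any of these.

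With 1 array left out, the counts ranged from 0 to 4 (phenytoin against control, hippocampus), from 1 to 2 (levetiracetam against control, brainstem), from 0 to 1 (phenytoin against levetiracetam in brainstem and in frontal cortex) and from 1 to 2 (phenytoin effect between regions). Same-numbered arrays of other regions of a treatment correlated at a median of 0.11 in their deviations from the group means, with 36 of 61 pairs over 0.1, against -0.02 and 13 of 366 for other numbers. Same-numbered arrays of other treatments in a region were at -0.01, with 9 of 61 over 0.1. The reported fits have no block because the labels do not say that a number marks 1 rat. Same-numbered arrays of a treatment were more alike than others, though not every pair was over 0.1 (lowest -0.12). If a number does mark 1 rat, the region contrasts and F tests treat arrays of the same rat as independent. For the region contrasts the replicate block joined arrays of the same treatment and number. Brainstem against frontal cortex then gave a member count of 7 (5 without the block). For treatments within a region the block joined same-numbered arrays of different treatments, so it does not model a shared rat. The member counts with it were 3 for phenytoin against control in hippocampus and 1 for levetiracetam in brainstem. Over all probe sets, 17 passed with the Gapdh ratio against 1721 as reported for phenytoin against control in hippocampus. In frontal cortex that comparison gave 777 with the block of same-numbered arrays across treatments, against 1191 as reported. Signal close to background limits Kcna3, Kcna5 and the dim probe sets of Kcna2, Kcna6 and Kcnab2.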
